A study of Mus musculus with 13 samples.

Results

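Ribosomal protein genes were compared between 3 skeletal muscles of mdm mice. They were taken by gene symbol. The cytosolic class holds the symbols that begin Rpl or Rps and go on with a number, an optional a, x, y or l and an optional last digit, together with Rplp0, Rplp1, Rplp2 and Rpsa. The mitochondrial class holds the symbols that begin Mrpl or Mrps and go on with a number and an optional letter. Symbols with "-ps", which mark pseudogenes, were left out. This gave 163 of the 17924 genes in the count tables, of which 86 were cytosolic and 77 mitochondrial, and all 163 were among the 17069 genes that passed the filter on low counts. The gene annotation holds 89 and 78 such symbols. Rpl10l, Rpl32l, Rpl39l and Mrpl53 are not analysed here. The symbol rule does not remove all pseudogenes. In the cytosolic class 5 genes, Rpl6l, Rps12l1, Rps3a2, Rps3a3 and Rps4l, are annotated as processed pseudogenes.

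All of the libraries are labelled with the genotype mdm, a rearrangement of the titin gene Ttn, in a colony founded with heterozygous B6C3Fe a/a-Ttn mdm/J animals. Wild-type muscle is not analysed here. Whole muscles were used: 5 libraries of the extensor digitorum longus (EDL, a fast hindlimb muscle), 5 of the psoas (a hip flexor) and 3 of the soleus (a slow calf muscle). The mice were 29 to 42 days old. The labels also carry a condition code (T1, T3, T4, T5 or T6) that they do not explain. EDL replicates 1 to 5 have T1, T4, T5, T6 and T6, psoas replicates 1 to 5 have T3, T4, T5, T6 and T6, and soleus replicates 1 to 3 have T4, T4 and T6. Several muscles can come from 1 mouse, which the labels do not show, so p-values measure the spread between these samples only.

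Total counts ran from 9114176 to 48835209 per library. In the paper's list of RNA integrity numbers, no mdm psoas library stood above the lowest mdm EDL library. RNA integrity therefore went with muscle in psoas against EDL, and its part in the values was not tested. In soleus Myh7, the slow myosin heavy chain, was higher than in EDL by a log2 fold change of 4.89 (adjusted p = 0.0261). Myh4, the fastest adult myosin, was lower in psoas than in EDL by a log2 fold change of -4.18 (adjusted p = 0.00223). In bulk muscle, fewer cells of a type and less RNA per cell cannot be told apart.

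The cytosolic ribosome makes nearly all proteins of a cell. It is built in the nucleolus and cytosol from a small subunit, which reads the mRNA, and a large subunit, which forms the peptide bond. The mitochondrial ribosome makes only the few proteins of the respiratory chain and ATP synthase that mitochondrial DNA encodes, and all of its own proteins are encoded in the nucleus and imported. In striated muscle, where mitochondria are abundant, part of the cytosolic large subunits carry Rpl3l, a muscle paralogue of Rpl3, a protein that lies close to the peptidyl transferase centre.

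Rpl3l (ENSMUSG00000002500, GRCm38 chr17:24727820-24736143, plus strand) gave the largest difference among the cytosolic genes. It is shown here with its paralogue Rpl3 (ENSMUSG00000060036, GRCm38 chr15:80077791-80091868, minus strand). The first 75 coding bases of each, the length of 1 sequencing read, are printed to show how far a read of one differs from the same stretch of the other. Capitals mark the 18 positions at which they differ.
Rpl3: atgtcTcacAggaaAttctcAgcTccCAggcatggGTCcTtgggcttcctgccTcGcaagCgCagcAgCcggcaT
Rpl3l: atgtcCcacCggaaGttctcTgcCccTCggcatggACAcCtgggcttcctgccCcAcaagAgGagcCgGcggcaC
Over their whole coding sequences, of 1209 and 1221 bases, the pair was 74.3% identical and the longest identical run was 22 bases. Reads of Rpl3 can still match other genes: 32.0% of the 75-base stretches of its transcripts are found elsewhere, most of them in the pseudogene Rpl3-ps1, while Rpl3l shares none.

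The copies of Rps3a are the opposite case. Rps3a1 makes a protein of the small subunit, and Rps3a3 is annotated as a processed pseudogene that the symbol rule admits. Bases 186 to 260 of the coding sequence of Rps3a1 are shown with the same stretch of Rps3a3, with capitals at the 2 bases that differ.
Rps3a1: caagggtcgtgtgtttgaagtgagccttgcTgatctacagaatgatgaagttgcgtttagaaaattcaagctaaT
Rps3a3: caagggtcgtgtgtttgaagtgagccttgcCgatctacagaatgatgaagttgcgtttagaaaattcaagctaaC
Rps3a3 was 98.99% identical to Rps3a1 and Rps3a2 was 99.49% identical, with identical runs of up to 215 and 317 bases. A 75-base read that falls within such a run has no single origin.

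Sequence shared with other genes was common in the cytosolic class and rare in the mitochondrial class. Among all 75-base stretches of a gene's transcripts, the median share found also in transcripts of another gene was 17.0% over the 86 cytosolic genes. Rpl3l had none, and 7 cytosolic genes shared more than 50% of them. In the mitochondrial class the median was 0.0% and 45 of 77 genes shared none. The highest mitochondrial share, 32.4%, was that of Mrps34, which shares transcript sequence with its neighbour Nme3.

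Cytosolic ribosomal protein mRNAs were far more abundant than mitochondrial ones. Levels are given per length, as RPKM, the reads per kilobase of exon scaled to the TMM-adjusted library size. The median of the 86 cytosolic genes, each averaged over the 13 libraries, was 157.9 RPKM, and the median of the 77 mitochondrial genes was 10.4 RPKM. The highest cytosolic levels were those of the stalk proteins Rplp0 and Rplp1, which recruit the GTPase translation factors, at 704 and 694 RPKM, followed by Rps3a1 at 565, Rps15 at 416 and Rpl36 at 415 RPKM. The lowest were Rpl24 at 1.69, Rps4l at 5.31 and Rpl7l1 at 11.4 RPKM. Several of these levels and ranks are uncertain, since many of the 75-base stretches are shared with other genes. The share was 70.9% for Rpl36, 60.2% for Rps3a1, 50.3% for Rpl24 and 45.9% for Rplp1. In the mitochondrial class Mrps21, a small subunit protein, was highest at 88.4 RPKM, followed by Mrpl54 at 48.1, Mrpl2 at 44.6, Mrpl18 at 39.1 and Mrpl41 at 32.9 RPKM. Mrps18b at 1.39, Mrps34 at 1.70 and Mrps25 at 1.98 RPKM were lowest. Here the shared part was 32.4% for Mrps34 and 12.05% for Mrps18b, so these 2 levels are uncertain as well.

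Within a muscle, ribosomal protein genes varied less in the median between libraries than all genes tested. The median SD of log2 CPM (counts scaled to the library size) within muscles was 0.27 over the cytosolic genes and 0.34 over the mitochondrial genes, beside 0.45 over all genes tested. The highest in the cytosolic class were Rps3a3 at 1.54, Rpl3l at 1.10, Rps4l at 0.892 and Rpl24 at 0.887. The SD of log2 CPM also depends on level, and the classes were not matched for level with all genes tested.

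The summed mitochondrial class was lowest in psoas. Its sum was 1344 ± 256 RPKM in EDL (SD, n = 5), 814 ± 210 in psoas (SD, n = 5) and 1115 ± 169 in soleus (SD, n = 3). By library it was 1069.6, 1208, 1439.5, 1266 and 1735 RPKM in EDL, 549.6, 659, 834, 981 and 1046 RPKM in psoas, and 1117, 946 and 1283 RPKM in soleus. All of the psoas libraries lay below all of the EDL libraries, and soleus replicate 2 lay below the highest psoas libraries.

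The summed cytosolic class differed less between muscles. It was 14992, 14516, 16413, 20714 and 19176 RPKM in the EDL libraries, 12948, 14085, 14891, 14971 and 15496 in the psoas libraries, and 15812, 13096 and 19931 in the soleus libraries. The means were 17162 ± 2690, 14478 ± 993 and 16280 ± 3442 RPKM (SD, n = 5, 5 and 3), and the muscles overlapped. EDL replicates 4 and 5 and soleus replicate 3, all with code T6, had the highest cytosolic sums.

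The ratio of the cytosolic to the mitochondrial sum does not depend on the scaling of a library. It was 14.02, 12.0, 11.4, 16.4 and 11.1 in EDL, 23.6, 21.4, 17.8, 15.3 and 14.8 in psoas, and 14.2, 13.8 and 15.5 in soleus. The means were 12.97 ± 2.21, 18.6 ± 3.82 and 14.5 ± 0.899 (SD). EDL and psoas overlapped in this ratio, since EDL replicate 4 exceeded psoas replicates 4 and 5. On the log2 scale psoas was 0.51 above EDL, and within label codes the difference was 0.83 in T4, 0.65 in T5 and 0.16 in T6. Soleus was 0.18 above EDL, with 0.22 in T4 and 0.21 in T6. Soleus against psoas gave -0.33, but -0.61 within T4 and 0.05 within T6. No test was made on these sums, which are scores over chosen genes.

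**Figure D1:**
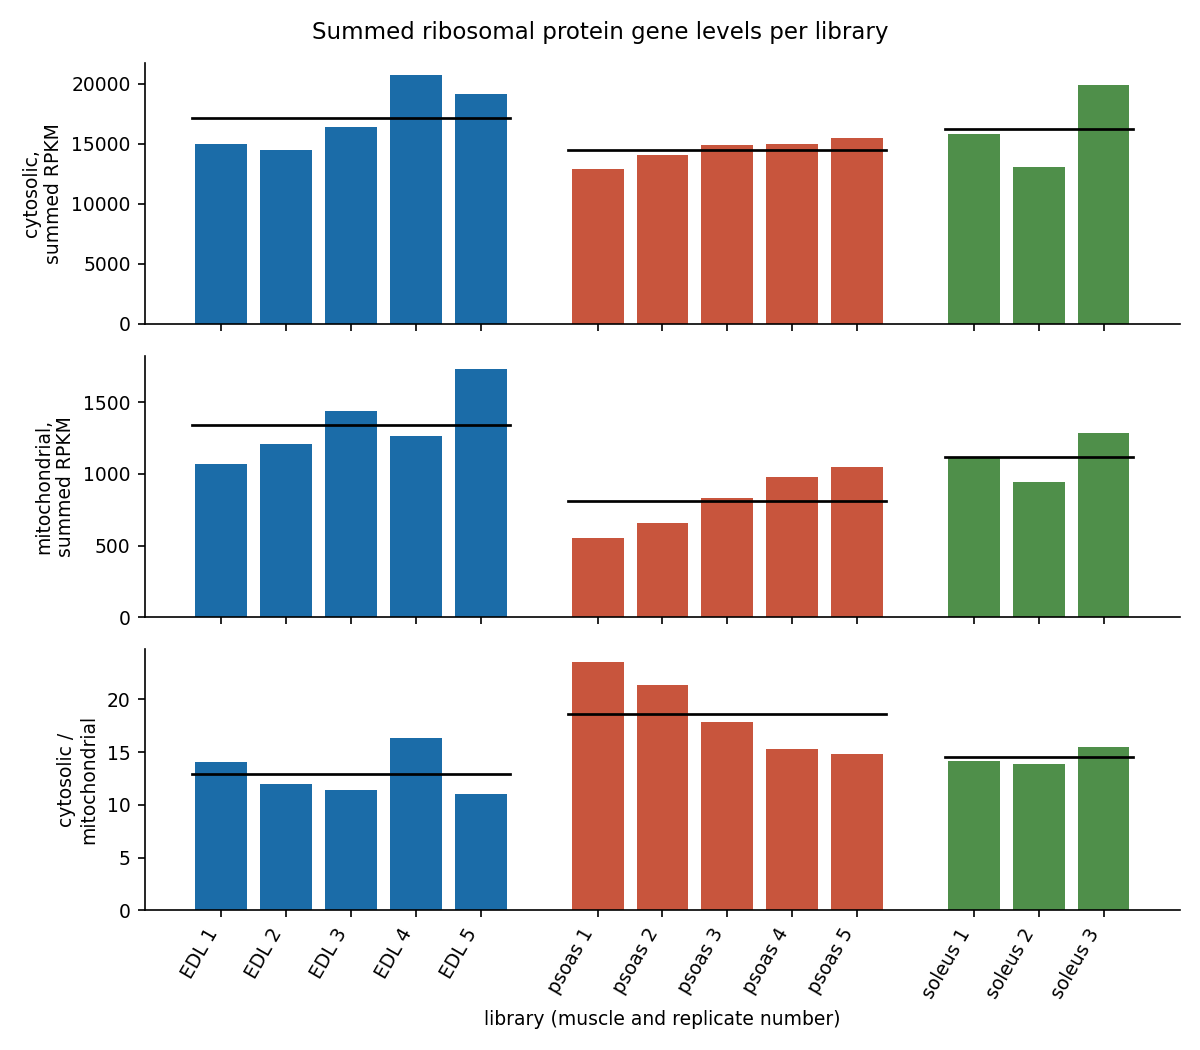
Summed RPKM of the 86 cytosolic and of the 77 mitochondrial ribosomal protein genes, and the ratio of both sums, in each of the 13 mdm libraries; each bar is 1 library, coloured by muscle, and the black line is the mean of the muscle. The psoas libraries lie between 549.6 and 1046 RPKM in the mitochondrial sum, below the EDL libraries, which start at 1069.6 RPKM.

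The largest class-wide difference was between psoas and EDL, in the mitochondrial genes. Of the 77, 76 had a log2 fold change below 0, with a median of -0.60, beside a median of 0.02 over all genes tested. The middle of the class lay between quartiles of -0.78 and -0.44. The rule that asks for an adjusted p under 0.01 and a log2 fold change over 1 in size called 3 mitochondrial genes, all lower in psoas, beside 2.5% of all genes tested called lower. At an adjusted p under 0.05 with no limit on the fold, 31 of 77 fell in psoas and none rose, beside 9.06% of all genes in each direction. The libraries of both muscles did not overlap for 23 of 77, all lower in psoas, beside 6.36% of all genes. With the replicate number as a block, the main rule called 6 mitochondrial genes and the rule without a fold limit 54. EDL replicate 1 and psoas replicate 1 differ in age, so this block is not a pairing by mouse. The counts of 3 and 31 rest on single libraries. They were 1 and 14 without EDL replicate 3, 1 and 13 without EDL replicate 5, 1 and 19 without psoas replicate 1, 1 and 10 without psoas replicate 2, and 1 and 27 without soleus replicate 1, while the main rule called 5 without EDL replicate 1, EDL replicate 4 or psoas replicate 5.

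The size of this difference depends on how libraries are scaled. The TMM factors were 0.70 to 0.94 in EDL and 1.003 to 1.36 in psoas. Without TMM the median over all genes moved to 0.54, the mitochondrial median was -0.11 and the cytosolic median was 0.28. Relative to the median of all genes, the mitochondrial genes stood at -0.62 with TMM and -0.65 without, and the cytosolic genes at -0.24 with TMM. Without TMM the main rule called none of the mitochondrial genes, and the rule without a fold limit called 3 lower and 1 higher.

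The medians of the Mrpl and the Mrps symbols were alike. These symbols stand for the large and the small subunit but do not follow it in every case, as for Mrps18a and Mrps36 described next. All 48 Mrpl genes and 28 of 29 Mrps genes had a log2 fold change below 0 in psoas, and the median was -0.60 in each group. By the rule without a fold limit, 20 of the Mrpl and 11 of the Mrps genes fell. Within label codes the median over the mitochondrial genes was -0.70 in T4, -0.68 in T5 and -0.46 in T6, with 76, 76 and 72 of 77 below 0. Genes with no shared 75-base stretch had a median of -0.57 and those with some had -0.61.

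The psoas libraries also differed among themselves. As the median over the mitochondrial genes of each gene's log2 CPM minus its mean over the libraries, psoas replicate 1, from the youngest mouse (29 days), stood at -0.78, replicate 2 at -0.53, replicate 3 at -0.28, replicate 4 at -0.05 and replicate 5 at 0.05. The EDL libraries stood between 0.05 and 0.64 and the soleus libraries between -0.12 and 0.26. The cytosolic genes had a narrower range in psoas, from -0.33 to -0.01. The genes of mitochondrial content described further on had nearly the same values as the mitochondrial ribosomal proteins in psoas, -0.81, -0.48, -0.21, -0.09 and 0.05.

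Mrpl42 (GRCm38 chr10:95480805-95501940, minus strand), which encodes a large subunit protein, had the lowest log2 fold change of the class. Its level was 116, 121, 161, 83.9 and 112 CPM in EDL, 29.5, 34.8, 45.1, 56.7 and 61.5 CPM in psoas, and 63.6, 55.7 and 69.6 CPM in soleus. Every psoas library was below every EDL library. The log2 fold change was -1.39 (SE 0.23, adjusted p = 0.00234), and it passed the main rule in all 13 fits that left out 1 library.

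Mrps36 (GRCm38 chr13:100735955-100744659, minus strand) carries a ribosomal symbol, but its product is known as a subunit of the 2-oxoglutarate dehydrogenase complex. It was at 29.9, 44.9, 62.9, 34.7 and 50.8 CPM in EDL, 9.07, 14.9, 17.4, 25.4 and 26.4 CPM in psoas, and 22.05, 24.02 and 26.0 CPM in soleus. The highest psoas library was below the lowest EDL library, and the log2 fold change was -1.26 (SE 0.28, adjusted p = 0.00887). It kept the main call in 4 of the 13 fits that left out 1 library, with an adjusted p of at most 0.0261 in the others.

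Mrps21 (GRCm38 chr3:95862634-95871519, minus strand), the mitochondrial counterpart of bacterial S21, was at 61.7, 87.2, 108, 79.5 and 106 CPM in EDL, 26.3, 33.8, 48.4, 48.1 and 53.6 CPM in psoas, and 67.8, 59.6 and 69.1 CPM in soleus. The psoas libraries lay below all EDL and all soleus libraries, with a log2 fold change against EDL of -1.07 (SE 0.22, adjusted p = 0.00616). It kept the main call in 6 of the 13 fits that left out 1 library.

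Just inside and just outside the fold limit stood Mrps21 and Mrps18a, which despite its name sits in the large subunit. Mrps18a was at 29.6, 34.7, 39.6, 28.1 and 44.5 CPM in EDL and at 13.03, 13.1, 20.8, 22.1 and 19.6 CPM in psoas, without overlap. Its log2 fold change of -0.995 (SE 0.19, adjusted p = 0.00501) was just under the limit in size. Mrpl12, the factor-binding stalk protein of the mitochondrial large subunit, missed the limit on p instead. It was at 47.7, 40.3, 39.7, 75.9 and 83.9 CPM in EDL and at 18.1, 27.1, 23.2, 29.4 and 36.7 CPM in psoas, with a log2 fold change of -1.10 (SE 0.27, adjusted p = 0.0131).

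Other mitochondrial genes of high level fell by less. Mrps12, part of the decoding centre, had a log2 fold change of -0.98 (adjusted p = 0.0240), Mrpl2 of the peptidyl transferase region had -0.94 (adjusted p = 0.0195) and Mrpl18 had -0.87 (adjusted p = 0.0198), all without overlap of the libraries. At the other end, Mrps2 was the single mitochondrial gene above 0, at 0.18 (adjusted p = 0.663). Its levels of 6.84 to 16.5 CPM in EDL spanned those of psoas, 10.98 to 14.1 CPM. Mrps35 at -0.03 (adjusted p = 0.935) and Mrps6 at -0.10 (adjusted p = 0.821) were next.

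**Figure D2:**
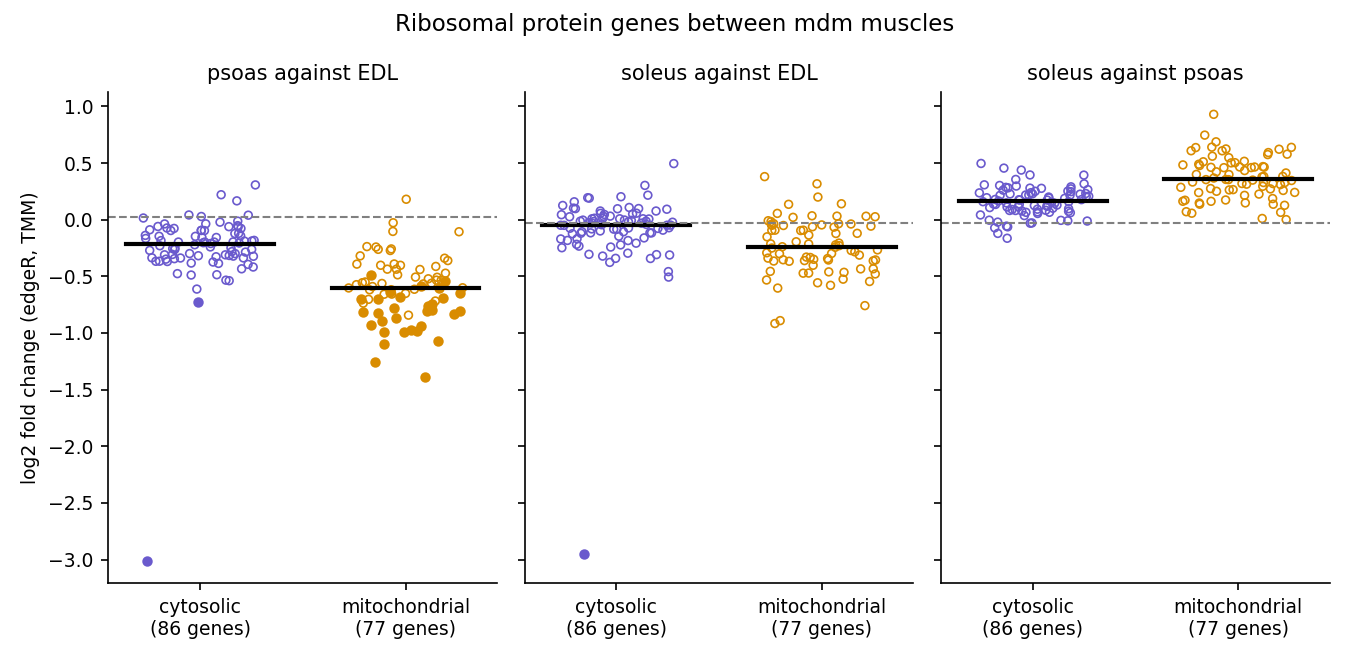
Log2 fold changes of each cytosolic and each mitochondrial ribosomal protein gene in the 3 comparisons between mdm muscles, from the edgeR fit; each point is 1 gene, filled where the adjusted p was under 0.05, the black line is the median of a class and the dashed line the median of all genes tested. In psoas against EDL the mitochondrial genes centre on -0.60 and the cytosolic genes on -0.22, with Rpl3l far below the rest of its class at -3.01.

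**Figure D3:**
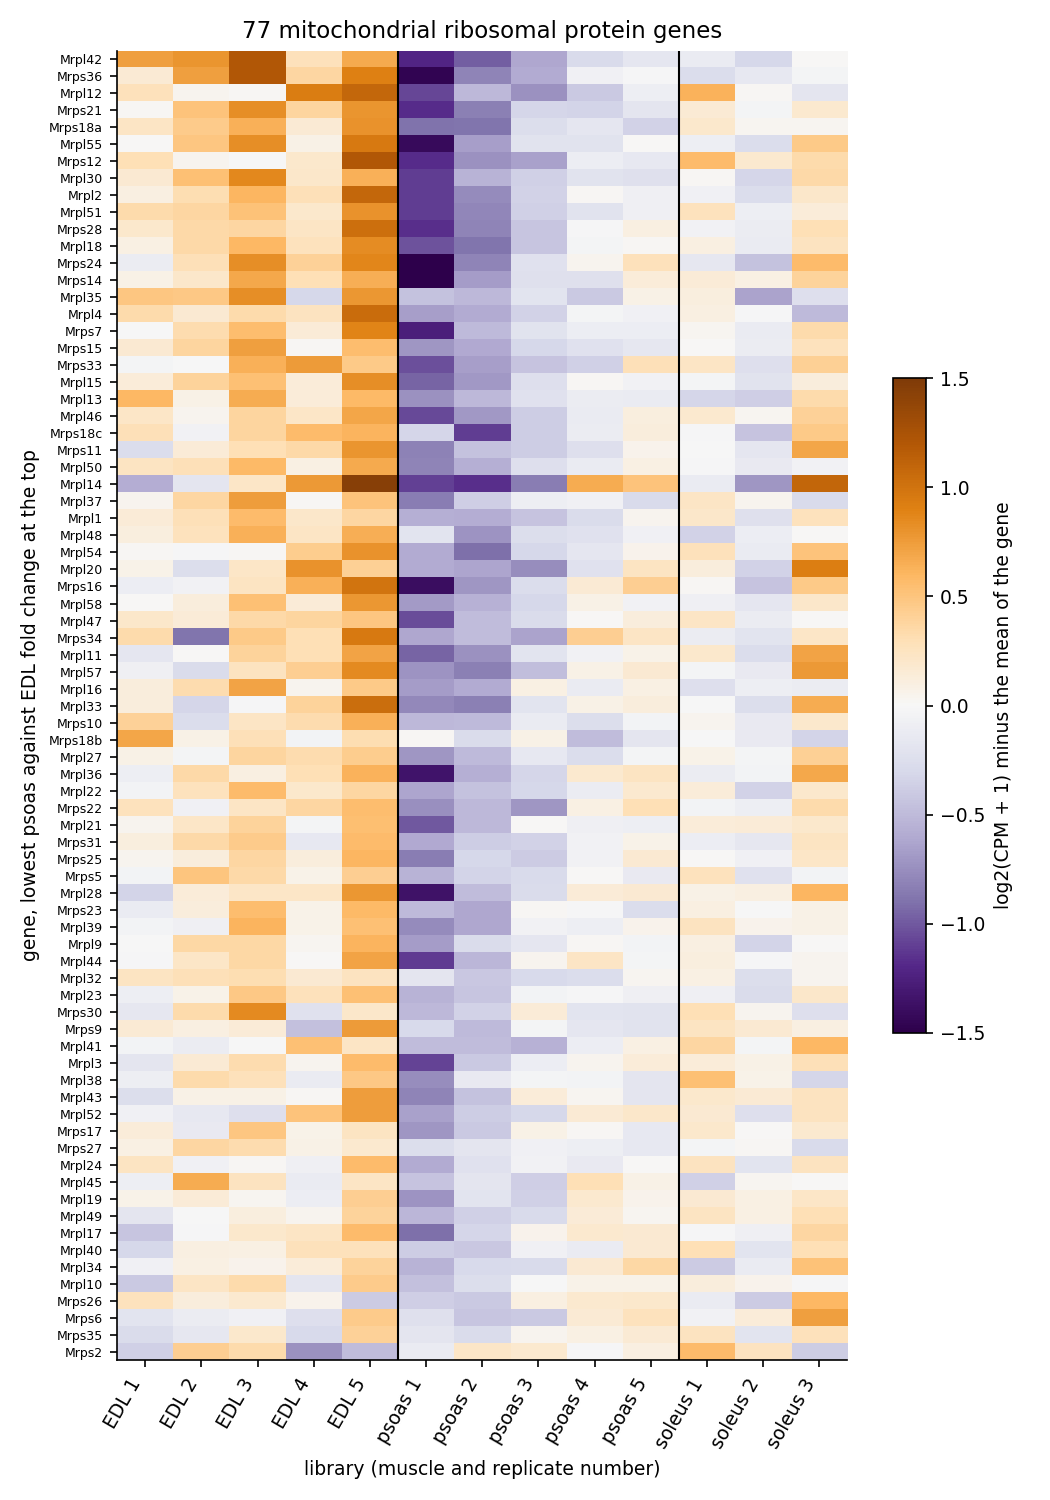
Level of each of the 77 mitochondrial ribosomal protein genes (rows) in each of the 13 mdm libraries (columns), as log2(CPM + 1) minus the gene's mean over the libraries, with colours limited to 1.5 in either direction and genes ordered by log2 fold change in psoas against EDL. The psoas columns, replicates 1 and 2 most of all, are below the gene means (purple) for most genes, and the EDL columns, replicate 5 most of all, are above them (orange).

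The cytosolic genes differed less between psoas and EDL. Of the 86, 79 had a log2 fold change below 0, with a median of -0.22. Over the 81 that are protein coding, the median was -0.24. The main rule called 1 gene, Rpl3l, lower in psoas, beside 2.5% of all genes. By the rule without a fold limit it was joined by Rps27l, a p53-inducible paralogue of Rps27, and no cytosolic gene rose, so that 2 of 86 were called beside 9.06% of all genes called lower. Rps27l was at 75.3, 101, 122, 129 and 159 CPM in EDL and 48.5, 55.7, 80.4, 78.2 and 92.1 CPM in psoas. The ranges overlapped, with a log2 fold change of -0.72 (SE 0.23, adjusted p = 0.0415). The libraries did not overlap for 4 of the 86, all lower in psoas and among them Rpl3l, Rps2 and Rpl28, the last named after its values were seen. That is 4 of 86 beside 6.36% of all genes. Within label codes the cytosolic median was -0.06 in T4, -0.09 in T5 and -0.34 in T6.

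Among single cytosolic genes, Rps2, at the mRNA entry side of the small subunit, was at 555, 348, 367, 477 and 571 CPM in EDL and 329, 326, 308, 346 and 347 CPM in psoas, with a log2 fold change of -0.49 (adjusted p = 0.0865). All psoas libraries lay below all EDL libraries, by a small margin. Among the stalk proteins, Rplp0 had -0.54 (adjusted p = 0.112), Rplp1 -0.37 (adjusted p = 0.248) and Rplp2 0.17 (adjusted p = 0.548), so their log2 fold changes had different signs and none passed a test. Rpsa, also known as the laminin receptor precursor, had -0.09 (adjusted p = 0.760) and Rps6, the substrate of S6 kinase, had -0.10 (adjusted p = 0.737). Rps27a, made as a fusion with ubiquitin, had -0.23 (adjusted p = 0.664). The highest were Rpl3 at 0.31, Rps10 at 0.22 and Rplp2.

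In soleus against EDL the class medians were nearer to 0. The mitochondrial median was -0.24, with 66 of 77 below 0, and the cytosolic median was -0.05, with 56 of 86 below 0. The main rule called none of the 163 genes, beside 0.978% of all genes, and DESeq2 called 1, Rpl3l. At an adjusted p under 0.05 Rpl3l alone fell, beside 1.66% of all genes called lower, and at an unadjusted p under 0.05 there were 7 mitochondrial and 2 cytosolic genes, beside 15.1% of all genes. The libraries did not overlap for 9 mitochondrial and 2 cytosolic genes, all lower in soleus, beside 5.5% of all genes. The lowest mitochondrial log2 fold changes were those of Mrpl42 at -0.92 (adjusted p = 0.0839), Mrps36 at -0.89 (adjusted p = 0.180) and Mrpl35 at -0.76 (adjusted p = 0.167). The highest were Mrps6 at 0.38, Mrps2 at 0.32 and Mrpl41 at 0.20. In the cytosolic class Rps16 at -0.46 (adjusted p = 0.398) was among the lowest and Rpl3 at 0.50 (adjusted p = 0.294) was highest.

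In soleus against psoas all 77 mitochondrial genes were above 0, with a median log2 fold change of 0.36, and 74 of 86 cytosolic genes were above 0, with a median of 0.16. None of the 163 passed the main rule by edgeR, beside 0.0762% of all genes, and none passed at an adjusted p under 0.05, beside 0.633%. At an unadjusted p under 0.05 there were 13 mitochondrial genes and no cytosolic gene, beside 12.7% of all genes. The libraries did not overlap for 8 mitochondrial and 4 cytosolic genes, all higher in soleus, beside 5.24% of all genes. Mrps12 had the highest log2 fold change, 0.93 (SE 0.31, adjusted p = 0.222), at 29.0, 21.8 and 24.5 CPM in soleus and 7.92, 11.2, 11.8, 17.9 and 17.2 CPM in psoas. Mrpl12 at 0.75 (adjusted p = 0.324) and Mrpl20 at 0.69 (adjusted p = 0.383) followed. Rpl39 at 0.50, Rps2 at 0.46 and Rps7 at 0.44 were the highest cytosolic genes. The comparisons share libraries, so a low psoas value enters both of those that include psoas.

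Rpl3l gave the widest difference in either class. Its level was 69.5, 111, 137, 78.3 and 98.3 RPKM in EDL, 1.90, 3.36, 9.14, 19.1 and 27.9 RPKM in psoas, and 7.65, 11.9 and 19.0 RPKM in soleus. All EDL libraries stood above all others, and psoas spanned the widest range. The means were 98.8 ± 26.8, 12.3 ± 11.05 and 12.8 ± 5.72 RPKM (SD, n = 5, 5 and 3). The log2 fold change was -3.01 in psoas against EDL (SE 0.59, adjusted p = 0.00523) and -2.95 in soleus against EDL (SE 0.73, adjusted p = 0.0389). Soleus and psoas did not differ beyond their spread, at 0.06 (SE 0.64, adjusted p = 0.977). The main call in psoas was lost, with an adjusted p between 0.0113 and 0.0144, on leaving out EDL replicate 3, EDL replicate 5, psoas replicate 2 or psoas replicate 3. In soleus the adjusted p ran from 0.0119 to 0.186 over the fits that left out 1 library, and it was over 0.05 without EDL replicate 2, 3 or 5 or without any of the soleus libraries.

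Rpl3 itself was at 134, 112, 106, 169.7 and 162 RPKM in EDL, 142, 189.7, 182, 170.1 and 163 RPKM in psoas, and 213, 163 and 203 RPKM in soleus. The muscles overlapped, and log2 fold changes of 0.31 in psoas (SE 0.19, adjusted p = 0.283) and 0.50 in soleus (SE 0.22, adjusted p = 0.294) against EDL did not pass the test. Rpl3l made up 31.6 to 56.3% of the summed RPKM of both genes in EDL, 1.31 to 14.6% in psoas and 3.47 to 8.53% in soleus. The log2 ratio of Rpl3l to Rpl3 was 3.92 lower in psoas than in EDL, a difference of -3.92 with an exact two-sided permutation p = 0.00794, the smallest that 252 arrangements allow, and 0.190 after Benjamini-Hochberg adjustment over 24 tests. Soleus differed from EDL by -3.51 (exact permutation p = 0.0179, the smallest that 56 arrangements allow, adjusted p = 0.214) and from psoas by 0.41 (exact permutation p = 0.714). Psoas against EDL gave -5.80 within T4, -4.68 within T5 and -1.93 within T6. Soleus against EDL gave -4.27 within T4 and -2.50 within T6.

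**Figure D4:**
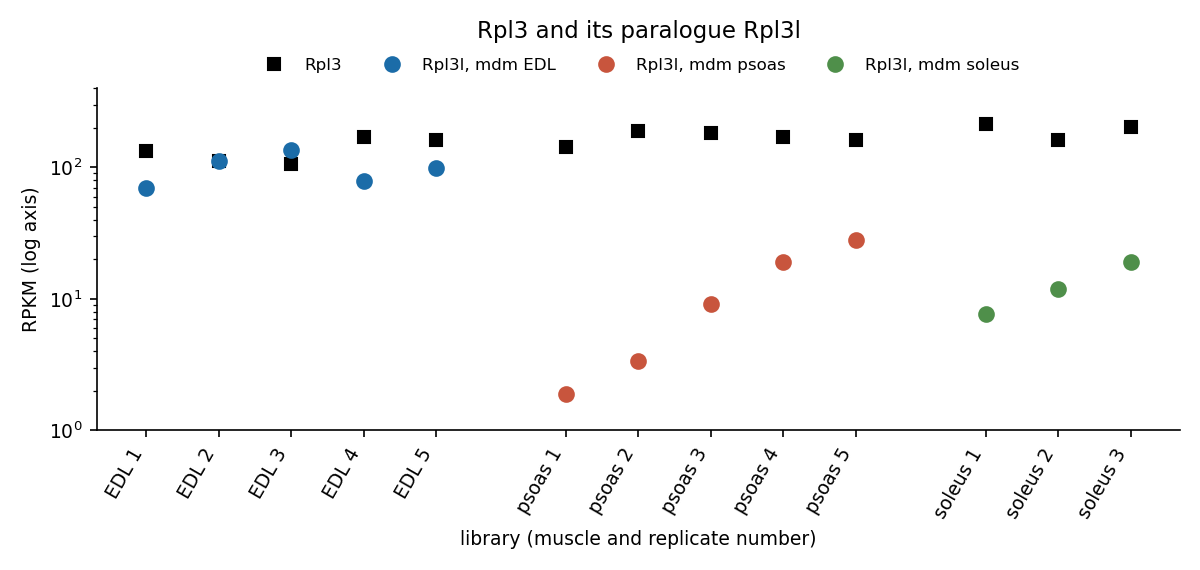
Levels of Rpl3 and of its muscle paralogue Rpl3l in each mdm library, in RPKM on a log axis; each pair of symbols is 1 library, squares for Rpl3 and circles, coloured by muscle, for Rpl3l. Rpl3l lies between 69.5 and 137 RPKM in EDL and at or under 27.9 RPKM in psoas and soleus, while Rpl3 overlaps between muscles.

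Among the genes whose log2 CPM followed that of Rpl3l most closely over the 13 libraries, of 8642 genes compared, were Scn4b with Pearson's r = 0.986, Coq10a with 0.974, Slc25a4 with 0.971 and Pgm1 with 0.965. With the muscle means taken out, r was 0.966, 0.934, 0.919 and 0.890. Scn4b, a sodium channel beta subunit, averaged 157.6 CPM in EDL, 16.1 in psoas and 22.2 in soleus. Slc25a4, the ADP/ATP carrier of muscle mitochondria, averaged 3291, 1108 and 1503 CPM. These correlations describe libraries that share muscle and depth.

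In the other 7 paralogue pairs no difference in the ratio passed the test. Their lowest exact permutation p was 0.125 before adjustment. Rps27l against Rps27 differed by -0.48 in psoas against EDL on the log2 scale (exact permutation p = 0.135, adjusted p = 0.810). Rpl22l1 stood at 20.8 ± 12.5 RPKM in EDL (SD, n = 5), 14.99 ± 7.32 in psoas (SD, n = 5) and 16.5 ± 8.02 in soleus (SD, n = 3), beside Rpl22 at 73.2 ± 16.6, 58.6 ± 7.41 and 70.7 ± 15.7 RPKM. Rpl7l1 was at 12.1 ± 2.45, 10.49 ± 1.92 and 11.9 ± 0.340 RPKM, in each muscle a small part of the level of Rpl7, which was 248 ± 35.0, 214 ± 26.1 and 249 ± 49.1 RPKM. In the mitochondrial family, Mrps18c was highest at 14.99 ± 2.81, 8.997 ± 2.83 and 11.8 ± 3.99 RPKM, Mrps18a followed at 9.57 ± 1.86, 4.80 ± 1.18 and 7.23 ± 0.487 RPKM, and Mrps18b was lowest at 1.75 ± 0.454, 1.16 ± 0.252 and 1.16 ± 0.191 RPKM. Identity in the coding sequence was 70.2% for Rpl22 and Rpl22l1, 76.2% for Rps27 and Rps27l, and 59.8% for Rpl7 and Rpl7l1.

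The Rps3a copies printed above divided differently in 3 libraries. In 10 libraries Rps3a1 held 81.3 to 84.9% of the CPM summed over Rps3a1, Rps3a2 and Rps3a3, and Rps3a3 held 2.13 to 3.24%. EDL replicate 3 and psoas replicate 3, the libraries with code T5, had 42.1% and 40.7% from Rps3a1 and 26.1% and 27.3% from Rps3a3. Soleus replicate 2 had 62.2% and 15.4%. The sum of the copies in these libraries, 756, 773 and 656 CPM, was inside the range of 611 to 936 CPM over all libraries. The log2 fold changes of Rps3a1 and Rps3a3 between muscles are therefore uncertain.

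Promoter sequences from RefSeq (GRCm38.p6), 250 bases before to 50 after the start, were matched to 61 cytosolic and 68 mitochondrial genes, among 27025 genes in all. mRNAs of cytosolic ribosomal proteins are known for a run of pyrimidines at their start, through which growth signals control their translation. To show this, 30 bases centred on the start are printed for 2 cytosolic genes, and for the 2 mitochondrial genes of lowest log2 fold change in psoas. Capitals mark runs of at least 6 C or T between 5 bases before and 10 after the start, which Mrpl42 and Mrps36 lack. In Mrps36 a run of 6 lies further upstream and is left in lower case.
Rps6 chr4:86857353-86857382, minus strand: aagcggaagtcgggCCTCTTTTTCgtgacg
Rps2 chr17:24720048-24720077, plus strand: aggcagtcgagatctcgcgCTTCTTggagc
Mrpl42 chr10:95501935-95501964, minus strand: atagcgcgcgctggacggcgcctttaggac
Mrps36 chr13:100744645-100744674, minus strand: ttatagctcctcagtgacatcacacaggct
A run of at least 6 in this window was found in 26 of 61 cytosolic genes (42.6%), in 6 of 68 mitochondrial genes (8.82%) and in 14.8% of all promoters.

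For Mrpl42 and Mrps36, which fell in psoas, 100 bases upstream that overlap no exon are also shown. Capitals mark an E-box in Mrpl42, searched as CANNTG, and in Mrps36 the motif CCAAT on the other strand. Over the 300 bases both promoters held both motifs. The CCAAT of Mrpl42 and the CANNTG of Mrps36 were not within the 100 bases printed.
Mrpl42 chr10:95501950-95502049, minus strand: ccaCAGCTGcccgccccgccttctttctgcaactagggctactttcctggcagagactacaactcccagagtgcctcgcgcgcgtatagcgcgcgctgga
Mrps36 chr13:100744660-100744759, minus strand: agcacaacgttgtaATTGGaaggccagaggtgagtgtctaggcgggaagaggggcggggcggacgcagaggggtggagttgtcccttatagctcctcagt
Over the 300 bases and both strands, CCGGAAG, a site of ETS factors, was in 41.0% of the cytosolic and 36.8% of the mitochondrial promoters and in 9.93% of all. GCGCATGC, the site of NRF-1, was in 4.92%, 11.8% and 3.05%, and AANATGGC, the site of YY1, in 21.3%, 30.9% and 6.96%. CCAAT was in 31.1%, 38.2% and 41.1%, CANNTG in 50.8%, 64.7% and 75.0%, and TATAAA in 11.5%, 7.35% and 15.7%. A match of letters is not a bound site.

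Genes that work with either ribosome were taken from lists. Some ribosomal proteins have other symbols. Of the 4 cytosolic ones none passed a test, and Rack1, Fau and Rpl36al had log2 fold changes in psoas against EDL of -0.16, -0.14 and -0.47. The 5 mitochondrial ones, Dap3, Ptcd3, Chchd1, Aurkaip1 and Gadd45gip1, were all below 0 with a median of -0.58. Chchd1 alone fell, at -1.04 (SE 0.28, adjusted p = 0.0210), past the limit of 0.05 only, beside 9.06% of all genes called lower.

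The list of mitochondrial translation factors and ribosome assembly genes, of which 37 of 38 were tested, had a median of -0.40 in psoas against EDL and 34 genes below 0. The main rule called 1 lower, beside 2.5% of all genes: Slirp, which stabilises mitochondrial mRNAs, at -1.04 (SE 0.23, adjusted p = 0.00901). By the rule without a fold limit, 8 of 37 fell and none rose, beside 9.06% of all genes in each direction. Among the 8 was Mrpl58, a member of the mitochondrial class that releases stalled peptides. The 17 mitochondrial aminoacyl tRNA synthetases had a median of -0.18 and 1 that fell at an adjusted p under 0.05, Fars2 at -0.73 (adjusted p = 0.0365). Nars2, the asparagine enzyme, rose in soleus against EDL at 1.38 (SE 0.25, adjusted p = 0.00841). It was 1 of 17 by the main rule, beside 91 of all 17069 genes called higher there.

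Genes of mitochondrial content had a median close to that of the mitochondrial ribosomal proteins. The 23 genes of this list, such as citrate synthase and the porins, had a median of -0.61 in psoas against EDL with 21 below 0. The main rule called 1 lower, the porin Vdac3, at -1.33 (SE 0.29, adjusted p = 0.00824), beside 2.5% of all genes called lower. At an adjusted p under 0.05, 10 of 23 fell and 1 rose, beside 9.06% of all genes in each direction. The 1 that rose was Polrmt, the mitochondrial RNA polymerase, at 0.72. In soleus the median was -0.33 against EDL and 0.29 against psoas, beside -0.24 and 0.36 for the mitochondrial ribosomal proteins. Whether the ribosomal proteins moved apart from mitochondrial content was not tested.

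Genes of cytosolic translation and ribosome biogenesis were called at shares near or below the 9.06% of all genes called in each direction at an adjusted p under 0.05. Among 45 cytosolic translation factors the median in psoas against EDL was -0.18. Pabpc1, the poly(A) binding protein, rose at 1.40 (SE 0.28, adjusted p = 0.00523) by the main rule. It was 1 of 45, beside 415 of all 17069 genes called higher. At an adjusted p under 0.05 a further factor rose, Naca at 0.67, and 3 fell: Eif4e, the cap-binding factor, at -0.84, Eif2s2 at -0.73 and Eif1ax at -0.71. The 47 genes of cytosolic ribosome biogenesis had a median of 0.00 and none passed the main rule. At an adjusted p under 0.05, 5 rose, with Nop2 at 1.15 and Myc at 0.99 highest, and 2 fell, Nop10 at -0.77 and Wdr12 at -0.65.

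**Figure D5:**
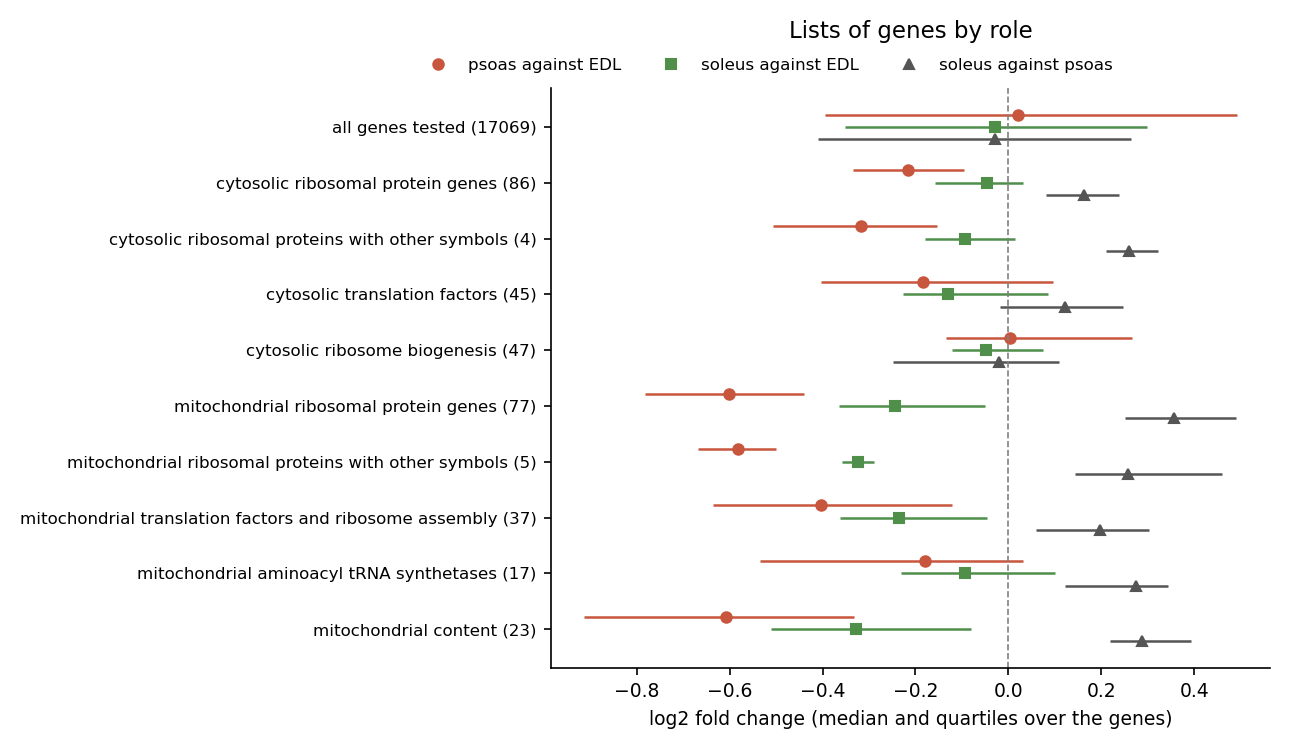
Log2 fold changes of each list of ribosomal, translation and mitochondrial genes in the 3 comparisons between mdm muscles; each symbol is the median over the genes of a list, the line spans its quartiles and the number of genes is in brackets. In psoas against EDL the medians of the mitochondrial ribosomal proteins at -0.60 and of mitochondrial content at -0.61 are the lowest of these lists, and that of cytosolic ribosome biogenesis is at 0.00.

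Markers of several cell types moved between the same libraries. Of 10 myofibre markers 4 were called lower in psoas than in EDL: Myh4, Tnnt3, Casq1 and Ckm, the last at -1.67 (adjusted p = 0.00356). The list did not move as 1, since 8 were below 0 and 2 above. Des at 0.56 (adjusted p = 0.156) and Myh7 at 0.38 (adjusted p = 0.804) were the 2 above 0, and Myh2 was at -0.46 (adjusted p = 0.474). The sum of the 10 markers was 84096 to 163940 CPM in EDL, 34528 to 66708 in psoas and 36731 to 53117 in soleus. Of 6 markers of regenerating fibres 2 were called higher in psoas, with a sum of 2040 to 3932 CPM in EDL, 3858 to 8457 in psoas and 3482 to 10545 in soleus. Of 5 Schwann cell markers 2 were called higher in psoas, with sums of 54.2 to 102 CPM in EDL, 165 to 1134 in psoas and 113 to 223 in soleus, and Sox10 had no count in 3 EDL libraries. Of 5 mesothelial markers 4 were called higher in psoas, with sums of 2.24 to 6.82 CPM in EDL, 13.7 to 59.4 in psoas and 2.04 to 8.88 in soleus. Among these 4, Bnc1 was at 0 in all 5 EDL libraries and 1 of soleus. Upk3b was at 0 in 4 EDL libraries and Wt1 in 3, with at most 1 count in the others. Bnc1, Upk3b and Wt1 could pass the filter on low counts only with psoas libraries, so their calls are not independent of the filter. Beside these marker counts, 415 of all 17069 genes rose and 426 fell by the main rule in psoas against EDL. At an adjusted p under 0.05 the share of all genes was 9.06% in each direction. None of 5 satellite cell, 10 macrophage, 8 fibroblast, 6 endothelial, 6 adipocyte or 5 red blood cell markers was called by the main rule in psoas against EDL, and at an adjusted p under 0.05 there were higher in psoas 4 red blood cell markers, 2 satellite cell markers (Pax7 and Myf5), 1 of macrophages (C1qb), 1 of endothelium (Cdh5), 1 of adipocytes (Cidec) and none of fibroblasts. Of 6 adipocyte markers 2 were called higher in soleus than in EDL, with sums of 531 to 1614 CPM in EDL, 840 to 2169 in psoas and 3208 to 4886 in soleus. In that comparison 3 myofibre markers (Myh4, Myh1 and Tnnt3) and 1 marker of regenerating fibres (Myh8) were called lower. Of all 17069 genes, 91 were called higher and 76 lower there. The part of these cell types in the ribosomal protein values was not tested.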

How the data were processed

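RNA from whole muscles was read as 75-base pairs (TruSeq Stranded Total RNA). The authors trimmed libraries of low base quality with Trimmomatic 0.32, aligned them to GRCm38.p4 with TopHat 2.1.1, over 5 sequencing runs, and deposited raw counts per gene, made with GenomicAlignments; its overlap and strand settings are not given in the sources used here, so reads of overlapping genes cannot be told apart. The deposited normalized values (signal: counts divided by the authors' size factors) were used only for the filter, a value of at least 10 in at least 3 libraries. No entry lacked a gene (0). Symbols and exon lengths came from GENCODE M21, which matched 17833 of 17924 identifiers.

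The count test was edgeR 4.0.16 in R 4.3.3 (TMM, quasi-likelihood, muscle as the term, all 13 libraries, Benjamini-Hochberg adjustment over 17069 genes). A gene was called at an adjusted p under 0.01 and a log2 fold change over 1 in size; a second rule used 0.05 alone. RPKM used the union of exons. Paralogue ratios, with 0.5 counts added, were compared by two-sided exact permutation tests over all arrangements (numpy 2.4.6). On simulated counts for these 17069 genes the test recovered 99.5% of 200 changed genes for psoas with EDL and 97.5% for soleus with EDL, with 1 false call each. The simulated spread was set below the spread estimated from these data. The planted changes were all of the same size, larger than the class medians, in genes above a set level. These shares therefore check the code and do not give the power of the test in these data. The sequencing run, a term in the study's model, is not in the labels, so the label code served as an alternative. Other alternatives were DESeq2 1.42.0, limma 3.58.1, other scalings and filters, a replicate block, and leaving out each library.

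Deviations of same-numbered EDL and psoas libraries correlated at 0.407, 0.370, 0.316, 0.289 and 0.371, over the limit of 0.1, so the replicate number was also used as a block. Within number 1 the EDL mouse was 38 days old with code T1 and the psoas mouse 29 days old with code T3. That pair had the highest correlation, so the correlation does not show which libraries share a mouse. No 2 libraries of a muscle agreed within sampling noise (23 pairs). Genes with "-ps" symbols, 153 in all, held 11.8 to 15.0% as many counts as the cytosolic class.

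The named genes were paralogue pairs, called members (at most 10 a direction), the 3 highest and 3 lowest fold changes per class and comparison, the 5 highest and 3 lowest levels per class, a few structural members, the 5 genes most like Rpl3l, and up to 3 called genes of the other lists per comparison; other genes of those lists were named after their values were seen. Members and lists were chosen with earlier results of these data known. Some genes that these rules would name are not reported here.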

Additional observations from a re-analysis of the deposited data

Results flagged for a closer look

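In each group of 4 or 5 libraries, the highest and the lowest library of a named gene was compared with the others by its gap over the range of the group (Dixon's 95% limit). Of 114 groups examined, 11 passed, where chance passes about 1 in 20. The values are CPM, and the cause of none of them was tested.

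Among mitochondrial genes EDL replicate 5 stood above the other EDL libraries in Mrps12, at 45.5 against 19.1 to 23.8, and in Mrps6, at 6.18 against 3.45 to 4.02. Among cytosolic genes EDL replicate 4 stood above the other EDL libraries in Rpl39, at 561 against 176 to 277, in Rps27a, at 844 against 278 to 370.1, and in Rps7, at 746 against 369 to 477.5. Psoas replicate 5 stood above the other psoas libraries in Rpl39, at 323.5 against 173 to 211, and in Rps27a, at 541 against 326 to 331. Psoas replicate 1 was low in Rack1, at 351 against 590.5 to 662.

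The copies of Rps3a departed in the libraries with code T5. Rps3a3 was at 197 in EDL replicate 3 against 14.9 to 22.4 in the other EDL libraries, and at 211 in psoas replicate 3 against 14.2 to 18.7 in the other psoas libraries. Rps3a1 was at 315 in psoas replicate 3 against 525.8 to 611.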

How the results depend on the processing

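The mitochondrial genes had a median log2 fold change below 0 in psoas against EDL under every alternative run, and it was -0.71 to -0.49 when each library was left out in turn. Without TMM it was -0.11, and 0.11 in soleus against EDL, while the cytosolic medians were 0.28 and 0.31. Of mitochondrial genes called in psoas, the 3 became 0 without TMM, 6 with DESeq2, 1 with these 2 muscles alone and 1 to 5 when each library was left out. The second rule's 31 ran from 10 to 40 over the same fits, and was 4 without TMM and 42 with DESeq2. Rpl3l was the cytosolic gene called in psoas, and 0 to 1 were called when each library was left out, with its log2 fold change between -3.57 and -2.74. In soleus against EDL it was also called by DESeq2 (-2.97, adjusted p = 8.9e-05) and with these 2 muscles alone (-2.94, adjusted p = 0.00338), 1 cytosolic gene in place of 0. The range of its adjusted p over all alternatives was 8.9e-05 to 0.186.

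In soleus against psoas Rpl3l changed sign without psoas replicate 1 (-0.21), psoas replicate 2 (-0.18), psoas replicate 3 (-0.02) or soleus replicate 3 (-0.32), over a range of -0.32 to 0.62. Its log2 ratio to Rpl3 there was -0.57 within T6 and -0.040 without psoas replicate 1, with a highest value of 0.88. Within codes, the same ratio in psoas against EDL was -5.80 in T4 and -1.93 in T6. The log2 ratio of the class sums was 0.83 in T4 and 0.16 in T6 in psoas against EDL, and -0.61 in T4 and 0.047 in T6 in soleus against psoas. The cause of these shifts was not tested.

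With the replicate block, 6 mitochondrial genes were called in psoas, with a median of -0.61. In soleus same-numbered libraries did not correlate in every case, with 0.115, 0.421 and -0.162 against EDL and 0.159, 0.141 and -0.302 against psoas. There the block called 1 cytosolic gene, Rpl3l, against EDL (-3.08, adjusted p = 0.00366). It changed no other count of calls by the main rule. Reads shared with pseudogenes limit the levels of cytosolic genes.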
